A study of Mus musculus with 6 samples.

Results

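Skeletal muscle fibre genes, the genes of the contractile apparatus, calcium handling and energy supply of voluntary muscle, were measured in 6 mouse synovial sarcomas. They were a list of 44 genes chosen by name, with fast and slow forms of several proteins among them, and all 44 were among the 17312 genes of the deposited table. The samples were bulk RNA of leg tumors, 3 with SS18-SSX2 and 3 with SS18-SSX1, the fusion oncoproteins of synovial sarcoma. Mice held a Cre-lox inducible allele of SS18-SSX2 or of SS18-SSX1. In both genotypes TATCre, a cell-entering Cre recombinase protein, had been injected in front of the shin, no further treatment was given, and tumors were taken about 1 year later. No promoter or cell type restricted the Cre, and the labels give neither the age nor the strain of the mice nor any batch. Whether each tumor is from its own mouse is not stated, so a p-value here covers only the spread among the 6 samples, which may be partly technical.

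Skeletal muscle fibres contract when myosin of the thick filament pulls on actin of the thin filament, a step that the troponins switch on when calcium rises. Fast fibres rely on glycolysis, and in rodents use the myosins of type IIb (Myh4), IIx (Myh1) and IIa (Myh2), whereas slow fibres rely on oxidation and use the slow myosin Myh7. Troponin T, I and C each have a fast form (Tnnt3, Tnni2 and Tnnc2) and a slow form (Tnnt1, Tnni1 and Tnnc1), and Myh7 and Tnnc1 are also genes of the heart. The muscles in front of the mouse shin are known to be made mostly of fast fibres.

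Values are FPKM, fragments scaled to transcript length and library size by the authors, and each set of 3 is given for tumors 1, 2 and 3 in turn. From 7285853 reads (SS18-SSX2 tumor 2) to 17546249 reads (SS18-SSX1 tumor 3) stood behind a tumor, a depth recovered from the spacing of low FPKM values. One read in 1 kb was worth between 0.0570 and 0.137 FPKM. Tumor 2 of each genotype stood apart from the others in the fibre genes, and each comparison between the genotypes is therefore given with and without them. In the headers of the deposited columns, tumor 2 of both genotypes begins with the letter A, tumor 3 with B and tumor 1 with N. The meaning of these letters is not given, and their relation to the fibre gene levels was not tested. Tumor-free muscle was not analysed here.

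The promoters of the 4 adult myosin genes, of both troponin C genes and of the muscle creatine kinase gene Ckm are shown because the tumors differed in how these genes related to one another. Each run holds 250 bases before and 50 after the gene's start on build GRCm38.p6, from RefSeq, 5′ to 3′ on the gene's own strand. Capitals mark CANNTG (the E box, bound by MyoD and other basic helix-loop-helix factors), TATAAA, and matches to the MEF2 and CArG motifs, searched on both strands.
Myh4 (chr11:67237562-67237861, plus strand): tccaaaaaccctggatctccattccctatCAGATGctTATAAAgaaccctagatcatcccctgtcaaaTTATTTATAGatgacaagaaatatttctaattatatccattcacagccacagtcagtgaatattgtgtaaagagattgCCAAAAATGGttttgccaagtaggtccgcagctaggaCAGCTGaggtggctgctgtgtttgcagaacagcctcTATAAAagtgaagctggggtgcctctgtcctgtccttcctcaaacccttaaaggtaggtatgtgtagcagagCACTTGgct
Myh1 (chr11:67199852-67200151, plus strand): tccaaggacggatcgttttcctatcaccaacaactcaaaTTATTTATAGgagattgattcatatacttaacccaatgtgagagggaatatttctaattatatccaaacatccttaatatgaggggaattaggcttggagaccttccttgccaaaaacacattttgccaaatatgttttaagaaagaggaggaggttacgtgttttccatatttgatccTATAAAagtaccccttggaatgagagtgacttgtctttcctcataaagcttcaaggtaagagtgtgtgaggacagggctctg
Myh2 (chr11:67170777-67171076, plus strand): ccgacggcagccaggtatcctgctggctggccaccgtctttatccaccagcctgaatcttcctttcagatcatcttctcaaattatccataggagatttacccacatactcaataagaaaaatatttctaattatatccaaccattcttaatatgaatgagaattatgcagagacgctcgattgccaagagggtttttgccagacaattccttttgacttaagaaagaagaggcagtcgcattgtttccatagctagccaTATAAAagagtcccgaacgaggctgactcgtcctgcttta
Myh7 (chr14:54994577-54994876, minus strand): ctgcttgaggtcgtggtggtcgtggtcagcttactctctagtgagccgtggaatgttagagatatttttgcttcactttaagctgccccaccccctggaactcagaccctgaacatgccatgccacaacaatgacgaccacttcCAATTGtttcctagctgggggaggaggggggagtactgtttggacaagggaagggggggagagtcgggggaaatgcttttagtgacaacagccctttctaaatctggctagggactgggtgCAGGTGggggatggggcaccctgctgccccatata
Tnnc2 (chr2:164779685-164779984, minus strand): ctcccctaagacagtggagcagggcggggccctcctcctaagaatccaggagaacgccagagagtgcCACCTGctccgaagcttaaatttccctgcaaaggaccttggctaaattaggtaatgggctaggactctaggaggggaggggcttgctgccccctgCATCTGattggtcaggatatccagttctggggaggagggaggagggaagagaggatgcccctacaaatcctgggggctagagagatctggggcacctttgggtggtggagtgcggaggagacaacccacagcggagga
Tnnc1 (chr14:31208062-31208361, plus strand): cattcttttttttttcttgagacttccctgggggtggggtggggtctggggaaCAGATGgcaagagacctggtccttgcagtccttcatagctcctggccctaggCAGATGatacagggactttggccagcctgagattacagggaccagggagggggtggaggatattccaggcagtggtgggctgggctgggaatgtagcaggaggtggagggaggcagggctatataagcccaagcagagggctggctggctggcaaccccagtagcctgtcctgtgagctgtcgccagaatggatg
Ckm (chr7:19410844-19411143, plus strand): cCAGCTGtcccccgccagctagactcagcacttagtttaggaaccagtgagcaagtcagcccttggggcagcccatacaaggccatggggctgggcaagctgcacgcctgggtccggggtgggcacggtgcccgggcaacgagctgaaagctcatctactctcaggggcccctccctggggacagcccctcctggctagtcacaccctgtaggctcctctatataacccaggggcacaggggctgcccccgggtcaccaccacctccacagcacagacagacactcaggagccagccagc
The windows of Myh4 and Myh1 each held 1 MEF2 match, which overlapped a TATAAA on the other strand, and Myh2 had no MEF2 match in this window. Myh4 also held 3 E boxes and 1 CArG match. Of the 44 genes, 35 had at least 1 such window in the table, 42 windows in all. An E box was found in 88.1% of these 42 windows and in 72.3% of all 32851 windows of the table. CAGCTG, a form of the E box, was found in 52.4% of the fibre gene windows and in 16.3% of all windows. The MEF2 motif was found in 16.7% and 1.86%, the CArG motif in 9.52% and 1.63%, TATAAA in 19.0% and 13.6%, and CATTCC (the motif of TEAD factors) in 31.0% and 14.7%. These matches describe the sequence and were not tested as sites.

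Fibre transcripts were found in all 6 tumors, at levels that differed more between tumors of 1 genotype than between the genotypes. The mean log2(FPKM + 1) level over the 44 genes was 1.96, 5.29 and 2.07 in SS18-SSX2 tumors, against 2.55, 6.47 and 2.72 in SS18-SSX1 tumors. In bulk tissue, fewer fibres and less RNA per fibre cannot be told apart. For 43 genes whose reads could be recovered, all but Ttn, reads came to 0.109%, 1.68% and 0.114% of all reads in SS18-SSX2 tumors, and to 0.148%, 3.64% and 0.193% in SS18-SSX1 tumors. Tumor 2 was the highest of its genotype in both, and by these measures the other 4 tumors lay close together. Genes also made outside muscle gave many of the reads in those 4. In SS18-SSX2 tumor 1, Atp2a2 gave 5395 and Tpm1 2371 of the 15796 reads of the 43 genes. In SS18-SSX1 tumor 2 they gave 2396 and 24996 of 501469. Some fibre genes differed more among the 4. Ckm was at 7.88 and 12.01 FPKM in SS18-SSX2 tumors 1 and 3, against 32.4 and 69.9 FPKM in SS18-SSX1 tumors 1 and 3.

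**Figure D1:**
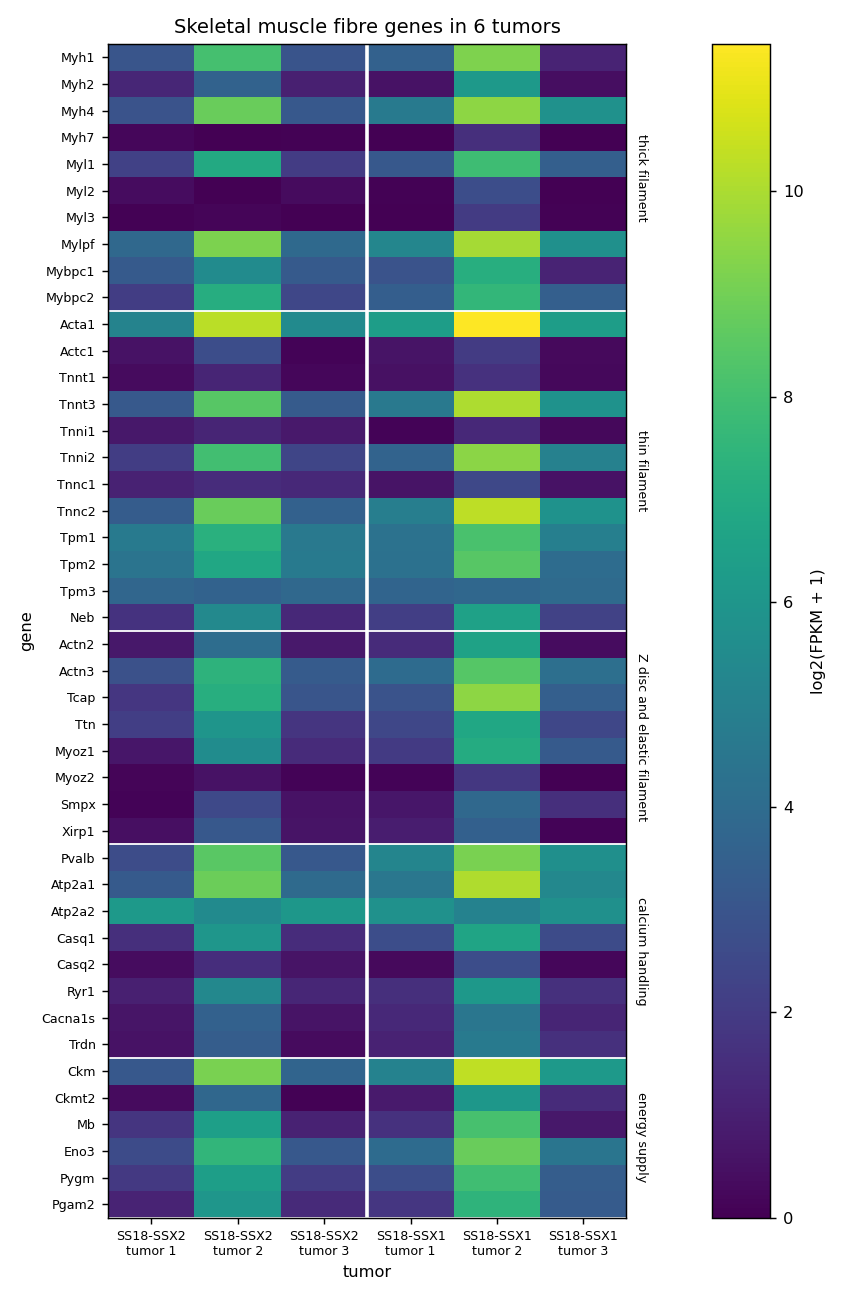
Level of each of the 44 fibre genes (rows, grouped by role) in each tumor (columns, SS18-SSX2 left of the white line), as log2(FPKM + 1) in color. Tumor 2 of each genotype is bright for most genes, while Tpm3 and Atp2a2 keep nearly 1 color across the row.

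SS18-SSX1 tumor 2 had the highest level of 41 of the 44 genes, and SS18-SSX2 tumor 2 came second for 39 of these. Tpm3, Atp2a2 and Actc1 were highest in another tumor, and for Myh7 and Myl2 the second highest was SS18-SSX2 tumor 1. Over the 40 genes above 0 in every tumor, the highest tumor exceeded the lowest by a median of 89.9-fold, between 1.31-fold for Tpm3 and 1398-fold for Ckmt2. SS18-SSX2 tumor 2 stood at a median of 0.43 times SS18-SSX1 tumor 2 (43 genes above 0 in both), and 30 of these ratios lay between 0.3 and 0.7. The lowest tumor was SS18-SSX2 tumor 1 for 18 genes, SS18-SSX2 tumor 3 for 9 and SS18-SSX1 tumor 3 for 11.

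Among the thick filament genes the fast myosins led. Myh4, the type IIb heavy chain, was at 6.60, 448 and 7.91 FPKM in SS18-SSX2 tumors, against 25.1, 718 and 53.6 FPKM in SS18-SSX1 tumors. Myh1, the type IIx heavy chain, was at 7.16, 266 and 6.80 FPKM in SS18-SSX2 tumors, against 10.7, 599 and 1.18 FPKM in SS18-SSX1 tumors. Both were highest in tumor 2 of each genotype, but SS18-SSX1 tumor 3 had more Myh4 than the other 3 tumors and the lowest Myh1. Myh2, the type IIa chain of fast oxidative fibres, was at 1.31, 11.1 and 1.03 FPKM in SS18-SSX2 tumors, against 0.45, 71.4 and 0.36 FPKM in SS18-SSX1 tumors. Mylpf, the fast regulatory light chain, was at 13.4, 576 and 13.9 FPKM in SS18-SSX2 tumors, against 36.9, 938 and 52.9 FPKM in SS18-SSX1 tumors. Myl1, the fast essential light chain, ranged over 3.07 to 123 FPKM in SS18-SSX2 tumors and 7.80 to 239 FPKM in SS18-SSX1 tumors. The regulatory chain of slow fibres and the heart ventricle, Myl2, stayed low, as did the essential one, Myl3, at 0 to 0.105 FPKM in SS18-SSX2 tumors and 0 to 2.95 FPKM in SS18-SSX1 tumors. Myl2 was at 0.318, 0 and 0.250 FPKM in SS18-SSX2 tumors, against 0.0385, 5.55 and 0.0292 FPKM in SS18-SSX1 tumors. Mybpc1, the slow form of myosin binding protein C, was at 8.54, 45.0 and 8.57 FPKM in SS18-SSX2 tumors, against 6.55, 145 and 1.23 FPKM in SS18-SSX1 tumors. Mybpc2, the fast form, was at 3.25, 139 and 4.42 FPKM in SS18-SSX2 tumors, against 9.82, 189 and 10.1 FPKM in SS18-SSX1 tumors. Mybpc1 was above Mybpc2 in SS18-SSX2 tumors 1 and 3 and below it in the other 4 tumors.

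Actin Acta1, the main actin of skeletal thin filaments, had the highest mean FPKM of the 44 over the 6 tumors, although Atp2a2 exceeded it in SS18-SSX2 tumors 1 and 3. It was at 33.2, 1219 and 43.6 FPKM in SS18-SSX2 tumors, against 81.7, 2772 and 81.8 FPKM in SS18-SSX1 tumors. Actc1, the actin of heart and of developing muscle, was at 0.468, 5.599 and 0.0861 FPKM in SS18-SSX2 tumors, against 0.511, 3.01 and 0.211 FPKM in SS18-SSX1 tumors. It was the one gene of the 44 that was highest in SS18-SSX2 tumor 2. The tropomyosins, which cover the myosin-binding sites of actin and are also made in nonmuscle cells, varied less than most members. Tpm1 ranged over 23.8 to 152 FPKM in SS18-SSX2 tumors and 18.8 to 280 FPKM in SS18-SSX1 tumors. Tpm2, the beta form, ranged over 20.3 to 110 FPKM in SS18-SSX2 tumors and 15.3 to 350 FPKM in SS18-SSX1 tumors. Tpm3, whose muscle form belongs to slow fibres, was at 12.7, 11.0 and 13.7 FPKM in SS18-SSX2 tumors, against 11.8, 13.0 and 14.4 FPKM in SS18-SSX1 tumors, with no rise in tumor 2. Neb, nebulin, which runs along the thin filament, ranged over 1.49 to 40.4 FPKM in SS18-SSX2 tumors and 3.35 to 92.2 FPKM in SS18-SSX1 tumors.

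Genes of the Z disc, the plate that anchors thin filaments, had the same 2 tumors on top for all 8 members. Actn3, the alpha-actinin of fast fibres, was at 6.25, 169 and 8.74 FPKM in SS18-SSX2 tumors, against 15.0, 344 and 17.2 FPKM in SS18-SSX1 tumors. Actn2, the alpha-actinin of all fibre types and the heart, was at 0.671, 16.1 and 0.735 FPKM in SS18-SSX2 tumors, against 1.63, 96.7 and 0.309 FPKM in SS18-SSX1 tumors. Actn3 was above Actn2 in each of the 6 tumors. The calsarcins, which tie calcineurin to the Z disc, also come as a fast form, Myoz1, and a slow form, Myoz2. Myoz1 was at 0.638, 45.6 and 1.61 FPKM in SS18-SSX2 tumors, against 2.84, 130 and 8.59 FPKM in SS18-SSX1 tumors. Myoz2 was at 0.121, 0.485 and 0.0820 FPKM in SS18-SSX2 tumors, against 0.0663, 2.67 and 0 FPKM in SS18-SSX1 tumors. Tcap, the cap of titin, was at 2.47, 143 and 7.13 FPKM in SS18-SSX2 tumors, against 6.57, 725 and 9.92 FPKM in SS18-SSX1 tumors. Titin itself (Ttn), the elastic filament, ranged over 2.36 to 61.2 FPKM in SS18-SSX2 tumors and 4.40 to 113 FPKM in SS18-SSX1 tumors. Smpx, a small protein of the muscle membrane skeleton, reached 4.83 and 13.3 FPKM in these groups, and Xirp1, which binds actin at sites of damage, 7.90 and 10.2 FPKM.

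In calcium handling the fast forms were the higher ones in tumor 2 of each genotype, while Atp2a2 exceeded Atp2a1 in the other 4 tumors. Pvalb, parvalbumin, a calcium buffer of fast fibres, was at 5.29, 369 and 7.76 FPKM in SS18-SSX2 tumors, against 36.1, 562 and 51.0 FPKM in SS18-SSX1 tumors. Atp2a1 encodes SERCA1, the pump that returns calcium to the reticulum of fast fibres. It was at 8.36, 467 and 14.4 FPKM in SS18-SSX2 tumors, against 22.5, 1087 and 39.0 FPKM in SS18-SSX1 tumors. Atp2a2 encodes SERCA2, the pump of slow fibres and heart, with an isoform made in most cell types. Atp2a2 ran the other way, at 70.2, 42.9 and 66.2 FPKM in SS18-SSX2 tumors, against 54.7, 32.9 and 52.7 FPKM in SS18-SSX1 tumors, lowest in tumor 2 of each genotype. The FPKM values are per gene and do not separate its isoforms. Casq1, the fast calsequestrin that stores calcium, ranged over 1.75 to 63.03 FPKM in SS18-SSX2 tumors and 5.20 to 101 FPKM in SS18-SSX1 tumors. Its slow and cardiac form Casq2 ranged over 0.302 to 1.86 FPKM in SS18-SSX2 tumors and 0.146 to 5.44 FPKM in SS18-SSX1 tumors. Of the release machinery, the channel Ryr1 reached 38.9 and 67.6 FPKM in tumor 2 of SS18-SSX2 and of SS18-SSX1. Its voltage sensor Cacna1s reached 10.9 and 21.7 FPKM, and Trdn, which links the channel to calsequestrin, 9.40 and 24.5 FPKM.

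Ckm, the creatine kinase that renews ATP in fibres, was at 7.88, 556 and 12.01 FPKM in SS18-SSX2 tumors, against 32.4, 1285 and 69.9 FPKM in SS18-SSX1 tumors. Ckmt2, the mitochondrial form, was at 0.278, 13.0 and 0.0469 FPKM in SS18-SSX2 tumors, against 0.758, 65.5 and 1.65 FPKM in SS18-SSX1 tumors. Mb, myoglobin, the oxygen store of oxidative fibres, was at 2.42, 85.7 and 1.11 FPKM in SS18-SSX2 tumors, against 2.10, 275 and 0.683 FPKM in SS18-SSX1 tumors. Myoglobin was thus lowest in SS18-SSX1 tumor 3, where Ckm was higher than in the other 3 tumors outside tumor 2. The glycolytic genes Eno3 (muscle enolase), Pygm (muscle glycogen phosphorylase) and Pgam2 (muscle phosphoglycerate mutase) reached 185, 84.4 and 63.9 FPKM in SS18-SSX2 tumor 2, and 459, 242 and 170 FPKM in SS18-SSX1 tumor 2.

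Fast forms exceeded slow forms in each of the 6 tumors for all 4 protein pairs. Tnnt3, which binds the complex to tropomyosin, was at 8.21, 348 and 8.81 FPKM in SS18-SSX2 tumors, against 23.5, 1038 and 55.7 FPKM in SS18-SSX1 tumors. Its slow form Tnnt1 was at 0.281, 1.25 and 0.158 FPKM in SS18-SSX2 tumors, against 0.409, 2.11 and 0.181 FPKM in SS18-SSX1 tumors. The lowest Tnnt3 value lay above the highest Tnnt1 value. Tnni2, the fast inhibitory subunit, was at 3.26, 251 and 4.19 FPKM in SS18-SSX2 tumors, against 11.6, 700 and 31.5 FPKM in SS18-SSX1 tumors. Tnni1, the slow one, was at 0.645, 1.29 and 0.693 FPKM in SS18-SSX2 tumors, against 0.0879, 1.49 and 0.200 FPKM in SS18-SSX1 tumors. Tnni1 thus stayed under 2 FPKM throughout. Tnnc2, the fast calcium sensor, was at 8.95, 451 and 10.7 FPKM in SS18-SSX2 tumors, against 29.1, 1245 and 55.4 FPKM in SS18-SSX1 tumors. Tnnc1, the slow one, was at 1.12, 1.71 and 1.47 FPKM in SS18-SSX2 tumors, against 0.505, 4.54 and 0.493 FPKM in SS18-SSX1 tumors. Each slow troponin spanned a smaller range over the tumors than its fast form. The slow myosin Myh7 was at 0.160, 0.0160 and 0.0406 FPKM in SS18-SSX2 tumors, against 0.0175, 1.93 and 0 FPKM in SS18-SSX1 tumors. Its value came from 1 read in SS18-SSX2 tumor 2, 2 reads in SS18-SSX1 tumor 1 and 0 reads in SS18-SSX1 tumor 3.

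On the log2(FPKM + 1) scale the fast form exceeded the slow form by a mean of 5.50 ± 2.49 for myosin, 5.22 ± 2.27 for troponin T, 4.37 ± 2.74 for troponin I and 4.87 ± 2.42 for troponin C (SD, n = 6 tumors). In an exact two-sided sign-flip permutation test each pair had p = 0.03125, higher in 6 of 6 tumors and the smallest p that 6 tumors allow, also after Benjamini-Hochberg adjustment over the 4 pairs. As a ratio of FPKM, Tnnt3 over Tnnt1 ran over 29.2, 279 and 55.8 in SS18-SSX2 tumors and 57.4, 492 and 308 in SS18-SSX1 tumors. Tnni2 over Tnni1 was 5.06, 195 and 6.04 in SS18-SSX2 tumors, against 132, 471 and 157 in SS18-SSX1 tumors. The ratio of 132 rests on 2 reads of Tnni1, with an exact counting interval of 36.1 to 1095 at 95%. The troponin T and I ratios were lowest in SS18-SSX2 tumors 1 and 3. For troponin T, however, 55.8 in SS18-SSX2 tumor 3 and 57.4 in SS18-SSX1 tumor 1 cannot be told apart. Their exact counting intervals at 95% were 23.5 to 174 and 32.5 to 112. Tnnc2 over Tnnc1 was 7.96, 263 and 7.28 in SS18-SSX2 tumors, against 57.6, 275 and 112 in SS18-SSX1 tumors. Myh4 over Myh7 was 41.2 in SS18-SSX2 tumor 1, 195 in SS18-SSX2 tumor 3 and 372 in SS18-SSX1 tumor 2. It was 28037 in SS18-SSX2 tumor 2, from 1 read of Myh7 (exact interval 5032 to 1.11e+06), and 1433 in SS18-SSX1 tumor 1, from 2 reads (396 to 11840). Against a floor of 3 reads per library, Myh4 was at least 2690-fold higher than Myh7 in SS18-SSX1 tumor 3.

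**Figure D2:**
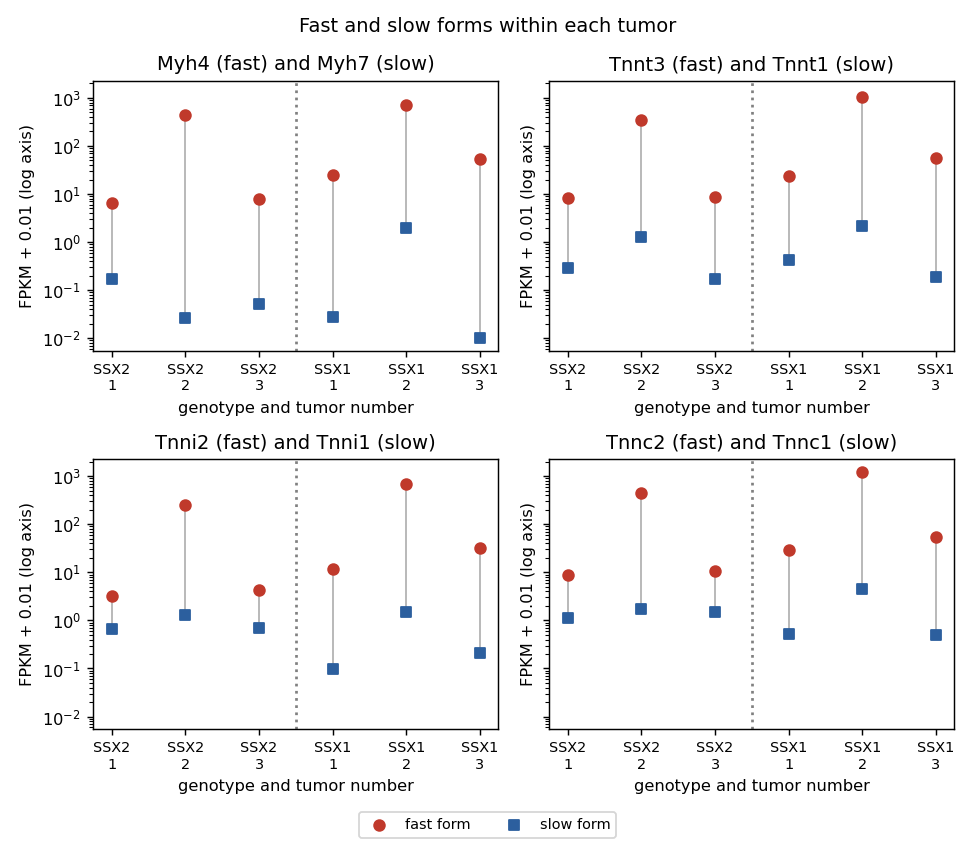
FPKM + 0.01 on a log axis of the fast form (red circles) and the slow form (blue squares) of 4 proteins in each tumor, SS18-SSX2 left of the dotted line, with a gray line joining the 2 forms. The red circle lies above the blue square in all 24 cases, with the shortest lines for Tnni2 and Tnni1 and for Tnnc2 and Tnnc1 in SS18-SSX2 tumors 1 and 3.

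Summed over the 4 pairs, fast over slow FPKM was 12.2, 352 and 13.4 in SS18-SSX2 tumors, against 87.6, 368 and 224 in SS18-SSX1 tumors. The slow forms made up 7.56%, 0.284% and 6.96% of the sum of both in SS18-SSX2 tumors, and 1.13%, 0.271% and 0.444% in SS18-SSX1 tumors. The 2 highest slow shares were thus those of SS18-SSX2 tumors 1 and 3, while SS18-SSX2 tumor 2 lay within the range of the SS18-SSX1 tumors. The difference between the forms did not separate the genotypes. SS18-SSX2 minus SS18-SSX1, the mean log2 difference was -1.26 for myosin (4.87 ± 3.40 against 6.13 ± 1.66), -1.63 for troponin T (4.40 ± 2.49 against 6.03 ± 2.17), -2.22 for troponin I (3.26 ± 3.06 against 5.48 ± 2.39) and -1.84 for troponin C (3.95 ± 2.97 against 5.79 ± 1.81; SD, n = 3 each). The exact two-sided permutation test gave p between 0.4 and 0.6, with 0.6 for all 4 pairs after Benjamini-Hochberg adjustment, where 3 tumors against 3 cannot go below 0.1. Without tumor 2 of both genotypes the differences were -2.32 for myosin, -1.89 for troponin T, -2.65 for troponin I and -2.54 for troponin C, each with an adjusted p of 0.333 in the exact permutation test, the smallest that 2 tumors against 2 allow.

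The makeup of the adult myosin heavy chains differed between tumors in another way. Of the summed FPKM of Myh4, Myh1, Myh2 and Myh7, Myh4 took 43.3%, 61.8% and 50.1% in SS18-SSX2 tumors, against 69.3%, 51.6% and 97.2% in SS18-SSX1 tumors. Myh1 took 47.0%, 36.7% and 43.1% in SS18-SSX2 tumors, against 29.4%, 43.1% and 2.13% in SS18-SSX1 tumors. Myh2 took 8.61%, 1.53% and 6.56% in SS18-SSX2 tumors, against 1.25%, 5.13% and 0.652% in SS18-SSX1 tumors. Type IIb and IIx chains together thus took most of the sum in each tumor. SS18-SSX1 tumor 3 stood apart, with Myh4 at 45.6 times Myh1, where the other tumors lay between 0.922 and 2.35 times. Myh7 had its highest share, 1.05%, in SS18-SSX2 tumor 1. These chains resemble each other, so reads could be shared between them. Myh4 and Myh1 transcripts were 89.9% identical and shared 10.6% of the 50-base words of Myh4, and Myh1 and Myh2 shared 19.7%, while Myh4 and Myh7 shared 0.117%. The handling of reads with several matches is not stated. In SS18-SSX1 tumor 3, Myh1 at 1.18 FPKM beside Myh4 at 53.6 FPKM bounds any carry-over of Myh4 reads into Myh1 there.

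**Figure D3:**
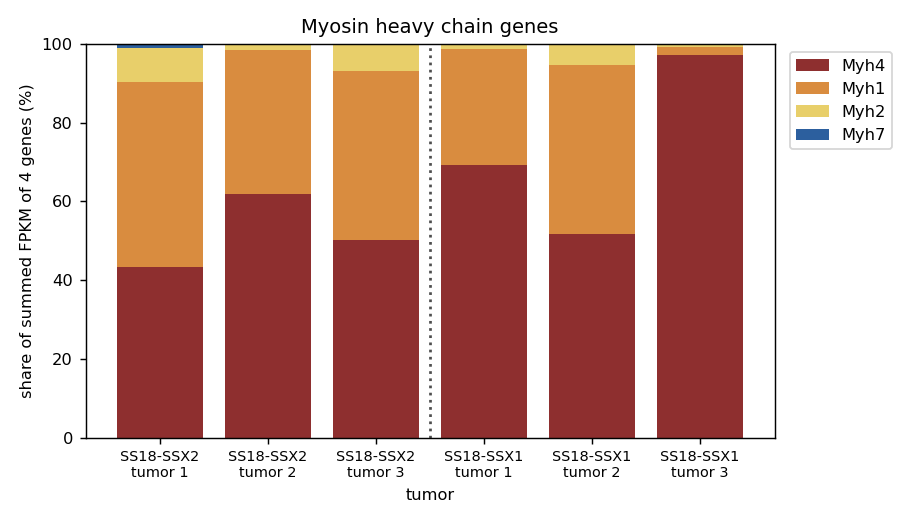
Share of each adult myosin heavy chain gene in the summed FPKM of Myh4, Myh1, Myh2 and Myh7 (percent), 1 bar per tumor with SS18-SSX2 left of the dotted line. Myh4 takes 97.2% in SS18-SSX1 tumor 3 and between 43.3% and 69.3% in the other 5 tumors, and Myh7 is visible only in SS18-SSX2 tumor 1.

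Relative to Ckm, the fast troponins and Myh4 kept nearly the same proportion in all tumors, although Ckm itself spanned 7.88 to 1285 FPKM. Myh4 was at 83.8%, 80.7% and 65.8% of Ckm in SS18-SSX2 tumors, against 77.3%, 55.9% and 76.6% in SS18-SSX1 tumors. Tnnc2 was at 114%, 81.2% and 89.2% of Ckm in SS18-SSX2 tumors, against 89.7%, 96.9% and 79.2% in SS18-SSX1 tumors. The highest relative level exceeded the lowest by 1.43-fold for Tnnc2, 1.499-fold for Myh4, 1.56-fold for Tnni2 and 1.66-fold for both Tnnt3 and Myoz1. In all, 12 of the 39 other genes above 0 in every tumor stayed within 3-fold, among them Atp2a1 (2.14-fold), Pvalb (2.55-fold), Mylpf (2.33-fold), Pgam2 (2.02-fold) and Eno3 (2.26-fold). At the other end, 16 of the 39 spanned over 10-fold. The widest spans were those of Atp2a2 (348-fold) and Tpm3 (159-fold), whose own levels spanned less than those of any other member, followed by the slow troponin Tnni1 (70.6-fold). Mybpc1 spanned 61.5-fold, Myh1 54.1-fold, Xirp1 50.5-fold, Tnnc1 46.2-fold, Myh2 32.4-fold and Mb 31.4-fold.

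**Figure D4:**
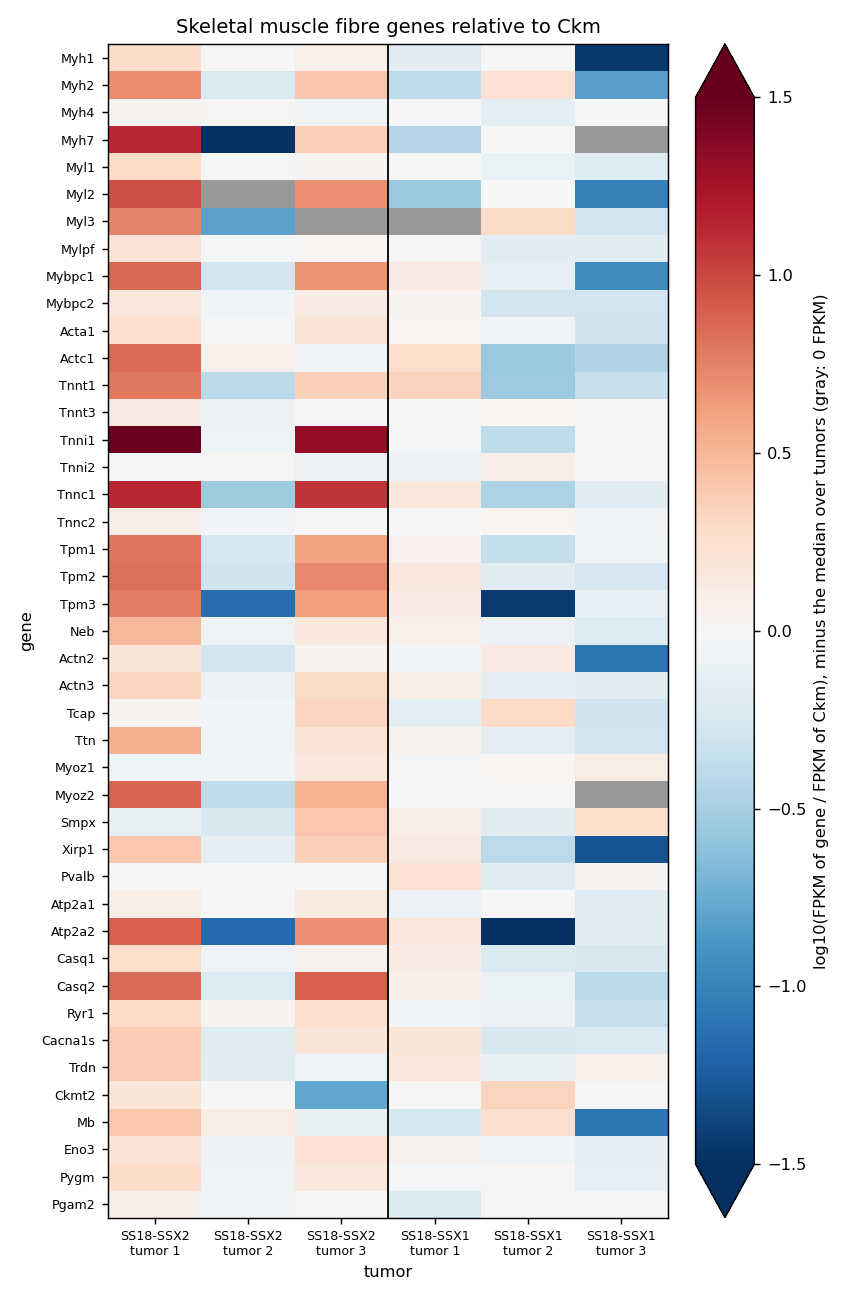
Level of each fibre gene relative to Ckm in the same tumor, as log10 of the ratio minus its median over the tumors with a value above 0 (color, limited to 1.5 either way, gray where a gene was at 0 FPKM), SS18-SSX2 left of the black line. Myh4, Tnnt3, Tnni2 and Tnnc2 are pale in every tumor. Tnni1, Tnnc1, Tpm3 and Atp2a2 are red in SS18-SSX2 tumors 1 and 3. Tnnt1 has nearly the same shade in SS18-SSX2 tumor 3 and SS18-SSX1 tumor 1. Myh1, Mybpc1, Mb and Xirp1 are blue in SS18-SSX1 tumor 3.

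Among the genes with wide spans, different tumors stood out. Tnni1 was at 8.18%, 0.231% and 5.77% of Ckm in SS18-SSX2 tumors, against 0.271%, 0.116% and 0.286% in SS18-SSX1 tumors. Tnnc1 was at 14.3%, 0.309% and 12.3% of Ckm in SS18-SSX2 tumors, against 1.56%, 0.353% and 0.705% in SS18-SSX1 tumors. Both were highest, relative to Ckm, in SS18-SSX2 tumors 1 and 3, where Ckm was lowest. Tnnt1 showed this less clearly, at 3.57%, 0.224% and 1.32% of Ckm in SS18-SSX2 tumors, against 1.26%, 0.164% and 0.259% in SS18-SSX1 tumors. Myh1 was low in a single tumor, at 90.9%, 47.9% and 56.6% of Ckm in SS18-SSX2 tumors, against 32.8%, 46.6% and 1.68% in SS18-SSX1 tumors. Mb was at 30.7%, 15.4% and 9.26% of Ckm in SS18-SSX2 tumors, against 6.47%, 21.4% and 0.977% in SS18-SSX1 tumors. Myh1, Mb and Mybpc1 each had their lowest value relative to Ckm in SS18-SSX1 tumor 3.

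Between the genotypes, no tested fibre gene differed beyond the spread of the tumors. Of the 44, 35 had at least 1 FPKM in at least 3 tumors and were tested with limma on log2(FPKM + 1). The 9 others (Myh7, Myl2, Myl3, Actc1, Tnnt1, Tnni1, Myoz2, Xirp1 and Casq2) were below that level. Of the 35, 0 passed an adjusted p of 0.05 (limma, Benjamini-Hochberg over 13873 genes), where 0.0649% of all tested genes did. At an unadjusted p under 0.05 the count was also 0, beside 4.97% of all tested genes, and in 0 of the 35 were the genotypes' values free of overlap, beside 8.72%. The fitted change was below 0 (lower in SS18-SSX2) for 31 genes and above 0 for 4, with a median of -1.02 beside 0.01 over all tested genes. The median SE was 1.55 for the fibre genes and 0.33 over all, so differences of the size seen here were not detectable with this spread.

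Named forms show the size of the error. Myh4 had a log2 fold change of -1.69 (SE 1.74), Tnnt3 of -1.84 (1.72), Tnni2 of -1.90 (1.87), Tnnc2 of -1.78 (1.77), Ckm of -1.86 (1.80) and Pvalb of -1.91 (1.63), SS18-SSX2 minus SS18-SSX1. Tnnc1 stood at 0.07 (0.53), Myh1 at 0.05 (2.12), Mybpc1 at 0.26 (1.41) and Atp2a2 at 0.35 (0.32). All of the 35 had adjusted p between 0.997 and 0.999 in limma. With a tumor left out, Myh4 ran over -3.61 to -0.27, Tnnt3 over -3.57 to -0.24, Tnni2 over -3.81 to -0.19, Tnnc2 over -3.57 to -0.14, Ckm over -3.75 to -0.28 and Pvalb over -3.79 to -0.69, all staying below 0. Their lowest and highest values came without SS18-SSX2 tumor 2 and without SS18-SSX1 tumor 2. Over all tested fibre genes the balance turned with 1 tumor. Without SS18-SSX1 tumor 2, 24 of 32 tested genes were above 0 with a median of 0.40. Without SS18-SSX2 tumor 2, 30 of 32 were below 0 with a median of -2.54. There 7 had an unadjusted p under 0.05 in limma, all lower in SS18-SSX2. At that p, 2.68% of all genes were lower in SS18-SSX2, and 943 of 13513 passed in either direction. Without tumor 2 of both genotypes, 21 of 28 tested genes were below 0 with a median of -1.14. In that fit 17 had an unadjusted p under 0.05 in limma, all lower in SS18-SSX2. At that p, 2.59% of all genes were lower in SS18-SSX2, and 902 of 13109 passed in either direction. After adjustment 0 of the fibre genes passed, the smallest adjusted p in limma being 0.124.

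**Figure D5:**
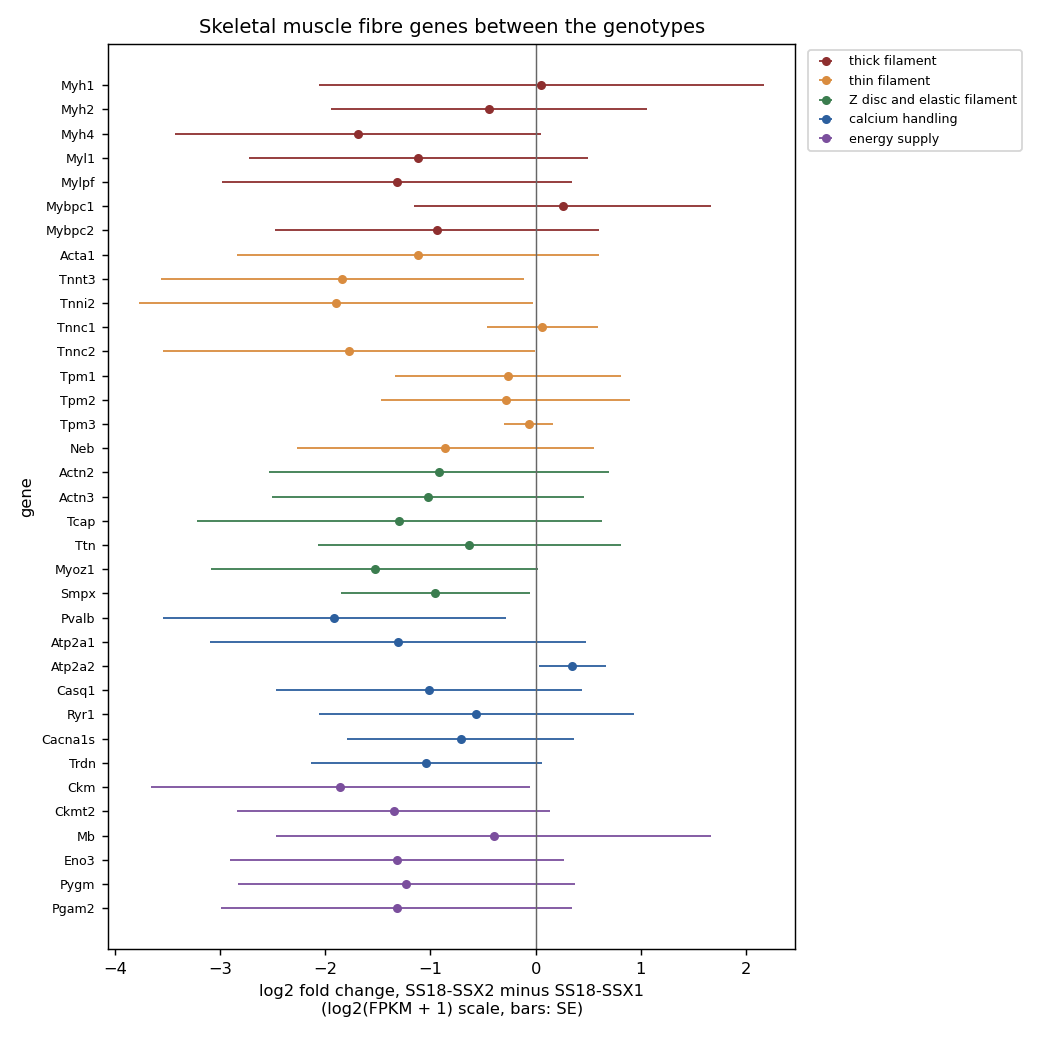
Log2 fold change of the 35 tested fibre genes, SS18-SSX2 minus SS18-SSX1 (log2(FPKM + 1) values), with points colored by role and bars of 1 SE from limma. Most points lie left of 0, and the bars are widest for Myh1 and Mb and narrowest for Tpm3 and Atp2a2.

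No other fibre gene passed the test either. Of 55 other genes of the sarcomere, calcium release, energy supply and membrane of fibres, 33 were tested. In limma 0 passed the adjusted threshold, beside 0.0649% of all tested genes, and 1 had an unadjusted p under 0.05, beside 4.97%. That gene was Fbxo32, a muscle ubiquitin ligase of atrophy, at 1.48, 5.94 and 1.85 FPKM in SS18-SSX2 tumors, against 8.26, 15.3 and 3.78 FPKM in SS18-SSX1 tumors, with values that overlapped. It was named after its values were seen. The fitted change was below 0 for 29 of the 33 and above 0 for 4, with a median of -0.66. Without tumor 2 of both genotypes, 19 were tested, 14 were below 0 and the median was -0.27. In that fit 2 had an unadjusted p under 0.05 in limma, both lower in SS18-SSX2. At that p, 2.59% of all genes were lower in SS18-SSX2, and 902 of 13109 passed in either direction. The most abundant of the 55 was Car3, carbonic anhydrase III, known mainly from slow fibres and fat. Car3 was at 15.9, 377 and 13.7 FPKM in SS18-SSX2 tumors, against 12.5, 859 and 89.3 FPKM in SS18-SSX1 tumors. Pfkm, muscle phosphofructokinase, was at 49.5, 97.5 and 63.6 FPKM in SS18-SSX2 tumors, against 57.7, 261 and 56.2 FPKM in SS18-SSX1 tumors. Sln, sarcolipin, a small inhibitor of the calcium pump, was at 2.00, 167 and 2.16 FPKM in SS18-SSX2 tumors, against 1.31, 216 and 0 FPKM in SS18-SSX1 tumors. These 3 were highest in tumor 2 of both genotypes, as the fibre genes were.

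Markers of other cell types also differed between tumor 2 and the other tumors. Of 10 markers of satellite cells and regenerating fibres, 5 were in the table, and their summed level was 9.998, 33.5 and 11.96 FPKM in SS18-SSX2 tumors, against 2.66, 13.8 and 7.60 FPKM in SS18-SSX1 tumors. Among them Myh8, the perinatal myosin, was at 0.146, 7.24 and 0.0532 FPKM in SS18-SSX2 tumors, against 0.0702, 2.66 and 0.00968 FPKM in SS18-SSX1 tumors. Myog, which drives fibre differentiation, was at 0 FPKM in SS18-SSX2 tumor 3 and SS18-SSX1 tumor 3. Outside tumor 2, most of the sum of these 5 markers came from Pax7 alone. Pax7 was at 8.66, 20.2 and 11.4 FPKM in SS18-SSX2 tumors, against 2.24, 4.61 and 7.52 FPKM in SS18-SSX1 tumors. In the SS18-SSX1 tumors it was highest in tumor 3, not in tumor 2. Of the plasma and B cell markers, Igkc, an antibody light chain, was at 4.05, 671 and 3.88 FPKM in SS18-SSX2 tumors, against 1.63, 71.1 and 1.41 FPKM in SS18-SSX1 tumors. Jchain, which joins antibody units, was at 0.379, 47.7 and 0.307 FPKM in SS18-SSX2 tumors, against 0.166, 6.73 and 0.283 FPKM in SS18-SSX1 tumors. Both were highest in tumor 2 of each genotype. Ms4a1 was not, at 0.134, 5.40 and 0.203 FPKM in SS18-SSX2 tumors, against 0.110, 0.106 and 0 FPKM in SS18-SSX1 tumors. Cd79a was at 0.0945, 3.39 and 0.0478 FPKM in SS18-SSX2 tumors, against 0.0515, 0.0997 and 0 FPKM in SS18-SSX1 tumors. The sum of the 6 endothelial markers ran the opposite way. It was 94.7, 24.2 and 87.0 FPKM in SS18-SSX2 tumors, against 85.1, 18.5 and 45.9 FPKM in SS18-SSX1 tumors, with none at 0. Of these markers, Vwf was lowest in tumor 3 among the SS18-SSX1 tumors, at 6.12, 2.79 and 1.62 FPKM. The 8 adipocyte markers summed to 6.90, 60.9 and 3.09 FPKM in SS18-SSX2 tumors, against 3.65, 33.2 and 75.7 FPKM in SS18-SSX1 tumors. Adipoq, Cidec, Lep and Pck1 were at 0 in SS18-SSX1 tumor 1, and Lep also in SS18-SSX2 tumor 3. In SS18-SSX1 tumor 3 Fabp4 alone, a lipid carrier of fat and other cells, gave 71.7 FPKM of that sum, and the mean log2(FPKM + 1) of the 8 markers was 0.80, 2.40 and 0.39 in SS18-SSX2 tumors, against 0.40, 1.73 and 1.24 in SS18-SSX1 tumors. The 8 macrophage and monocyte markers summed to 134, 566 and 145 FPKM in SS18-SSX2 tumors, against 44.1, 316 and 355 FPKM in SS18-SSX1 tumors, high in tumor 2 of both and as high in SS18-SSX1 tumor 3, with none at 0. The 5 tendon markers summed to 33.4, 40.04 and 48.8 FPKM in SS18-SSX2 tumors, against 38.1, 74.5 and 46.9 FPKM in SS18-SSX1 tumors, also with none at 0. The part of these cell types in the fibre gene levels was not tested. Of 8 heart markers 4 were in the table and summed to 11.9, 19.7 and 15.8 FPKM in SS18-SSX2 tumors, against 25.4, 15.4 and 8.34 FPKM in SS18-SSX1 tumors, mostly from Tnni3, with no rise in tumor 2 of both genotypes. Nor was the summed level of 3 further lists highest in tumor 2 of both genotypes. The 9 smooth muscle and pericyte markers summed to 91.2 to 166 FPKM in SS18-SSX2 tumors and 63.2 to 99.3 FPKM in SS18-SSX1 tumors. The 6 markers of denervated fibres and the neuromuscular junction summed to 59.4 to 64.4 FPKM in SS18-SSX2 tumors and 66.2 to 165 FPKM in SS18-SSX1 tumors. In SS18-SSX1 tumor 1, Ncam1 alone gave 155 FPKM of that sum. The mean log2(FPKM + 1) of these 6 markers was instead highest in tumor 2 of both genotypes. It was 2.32, 2.65 and 2.17 in SS18-SSX2 tumors, against 2.15, 2.65 and 2.17 in SS18-SSX1 tumors. The 5 red blood cell genes summed to 73.3 to 572 FPKM in SS18-SSX2 tumors and 18.1 to 734 FPKM in SS18-SSX1 tumors.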

How the data were processed

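Bulk RNA of 6 tumors was measured after Ribo-Zero depletion of ribosomal RNA from total RNA made with RNeasy kits, per the labels' protocols. The authors deposited 1 table of FPKM values, per transcript length and library size, and columns were matched to tumors by the sample descriptions. Novoalign 2.08.03 and mm10 appear, with no role, in the field listed per the submitters' processing notes. The counting tool, gene models and treatment of reads with several matches are not given in the sources used. Identifiers were matched to GENCODE mouse symbols on GRCm38 for 17029 of 17312 genes.

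Genes with at least 1 FPKM in at least 3 tumors (13873) were tested on log2(FPKM + 1) with limma 3.58.1 (R 4.3.3, lmFit and eBayes with trend), SS18-SSX2 minus SS18-SSX1, with p adjusted by Benjamini-Hochberg over these genes and called under 0.05. The procedure was checked on simulated data, for the mean fitted change of genes at higher levels only. The widest gene spreads were capped there, so the check does not cover genes with the widest spread. Fold changes on that scale understate the change of low genes. The 4 fast and slow pairs were compared by exact permutation tests (scipy 1.17.1). Library totals came from low FPKM values being whole reads: 76.2% to 78.4% were whole within 0.02 reads. Reads of 43 fibre genes were whole within 0.05 reads. Where the annotated exon length did not give whole reads, the smallest length that did in all tumors was used. This was so for Myh7, Tnni1, Tnnt3, Ckm and others, with 1706 bases used for Tnni1 against 3600 annotated. Whole reads of those genes follow from that choice, and their counts are the fewest that fit. Because most low values fit but not all, the reads served for depth, floors (3 reads) and 95% intervals, which cover counting error only. Transcript likeness came from blastn 2.17.0.

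The gene list, the other lists and the tests were chosen with earlier results of these data known. All 44 genes were described by role, the 8 fast and slow forms with every value, and of the other lists the 3 genes with the highest mean, of which the text gives those of most use. A marker of the plasma and B cell list and one of the Schwann cell list are not reported here, nor the sums of these lists. Myog and the markers named for a value of 0 were chosen after their values were seen. Alternatives were pseudocounts of 0.1 and 0.5, no filter, a mean of 5 FPKM, 4 scalings, no trend, weights per tumor, a replicate block, and tumors left out.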

Additional observations from a re-analysis of the deposited data

How the results depend on the processing

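The counts of 0 called genes, among the 44 and among the 55 others, held in limma under all 18 alternatives run for each. The 4 fast minus slow differences between genotypes kept their sign under all 12 run for each. None of these could reach the threshold, since the exact test of 3 tumors against 3 cannot go below 0.1 and fewer tumors go no lower. The fast minus slow differences within tumors kept their sign under all 11 run for each. With a tumor left out, 5 tumors cannot go below 0.0625 in the exact permutation test, and the means ran over 4.84 to 6.06 (myosin), 4.58 to 5.69 (troponin T), 3.61 to 4.97 (troponin I) and 4.28 to 5.40 (troponin C). Without tumor 2 of both genotypes they were 4.06, 3.91, 2.82 and 3.51, where 4 tumors cannot go below 0.125. Between genotypes, with a tumor left out, they ran over -3.23 to -0.19, -3.07 to -0.45, -3.98 to -0.89 and -3.56 to -0.83.

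Log2 fold changes near 0 turned sign. Tnnc1 was at -0.024 with quantile normalization, -0.30 with weights per tumor, and -0.25 to 0.69 with a tumor left out. Myh1 was at -2.44 with weights and -1.70 to 2.35 with a tumor left out, and Mybpc1 at -1.27 and -1.04 to 1.97. With weights the 4 fast forms lay between -4.02 and -3.67. The cause was not tested. With weights, 10 of the 35 genes had an unadjusted p under 0.05 in limma, all lower in SS18-SSX2. At that p, 577 of all 13873 genes were lower in SS18-SSX2, and 1557 passed in either direction. Over all genes, the 9 calls (6 higher and 3 lower in SS18-SSX2) became 3 and 3 with quantile normalization, no filter or scaling without the fibre genes, 3 and 4 with TPM, and 11 and 5 with weights.

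Whether the tumor numbers pair the samples across the genotypes is not stated. Deviations from the genotype means correlated at 0.38, 0.31 and -0.28 for numbers 1, 2 and 3. Numbers 1 and 2 correlated best with their own number, and number 3 did not. With 3 tumors per genotype these correlations cannot settle whether the numbers pair the samples. With the number as a replicate block, limma called 0 of the 35 fibre genes and 22 had an unadjusted p under 0.05, all lower in SS18-SSX2. At that p, 285 of all 13873 genes were lower in SS18-SSX2, and 827 passed in either direction. Over all genes 3 were called higher and 1 lower. Of the 44 genes, up to 10 had at most 10 reads in a tumor (SS18-SSX1 tumor 3), which limits the slow forms most.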

Other observations

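Tnni3, the cardiac troponin I, was at 10.8, 17.4 and 14.6 FPKM in SS18-SSX2 tumors, against 19.1, 11.5 and 7.27 FPKM in SS18-SSX1 tumors. It did not follow the fibre genes: SS18-SSX1 tumor 2, highest for most of them, was below 3 other tumors. Tnnt2, the cardiac troponin T, stayed between 0.227 and 0.336 FPKM in SS18-SSX2 tumors and between 0.0929 and 0.710 FPKM in SS18-SSX1 tumors. Pax7, the transcription factor of satellite cells, was at 8.66, 20.2 and 11.4 FPKM in SS18-SSX2 tumors, against 2.24, 4.61 and 7.52 FPKM in SS18-SSX1 tumors, and was higher in each SS18-SSX2 tumor than in any SS18-SSX1 tumor, while the genotypes were free of overlap, in either direction, in 8.72% of all tested genes. Tnnt2 was chosen after its values were seen.

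The 8 mast cell markers summed to 31.5, 63.97 and 13.5 FPKM in SS18-SSX2 tumors, against 107, 64.7 and 2543 FPKM in SS18-SSX1 tumors. The tumor with that highest sum, SS18-SSX1 tumor 3, was also the one in which Myh4 took 97.2% of the adult myosin sum, and the relation was not tested.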
